A study of Mus musculus with 2 samples.

Results

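The nuclear receptors described here are 45 mouse genes of the family of ligand-regulated transcription factors, chosen by gene symbol from a fixed list and all found among the 43346 mouse genes of the gene tables. The study measured total RNA of liver from B6NCrl mouse embryos at embryonic day 11.5 in 2 libraries, which the labels call biological replicates 1 and 2 of a single group with no treatment and no control. Replicate 1 came from a pool of 109 embryos and replicate 2 from a pool whose size the labels do not state, both of mixed sex, so the spread between the libraries is that of 2 pools and not of single animals. Each library was made from 10 ng of RNA with control RNAs spiked in.

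A nuclear receptor reads a chemical signal directly into transcription: a ligand such as retinoic acid, thyroid hormone, an oxysterol, a bile acid or a steroid enters the cell and binds the receptor, which sits on DNA through a pair of zinc fingers and exchanges corepressors for coactivators. Many members bind as a heterodimer with a retinoid X receptor (RXR), on direct repeats of a 6-base half-site whose spacing selects the partner. Steroid receptors are held by heat shock protein chaperones until hormone binds and then act as homodimers, and orphan members such as the COUP-TFs have no established hormone. In adult liver these receptors govern bile acid, lipid, glucose and drug metabolism. At this stage the liver bud is being filled by blood-forming cells and hepatoblasts are still immature.

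The coding sequence of the first zinc finger is what unites the family. It is printed here for members at the top of the order of levels, because the last bases decide which half-site a receptor reads. Nr3c1, which stands between Thra and Rara in that order at a mean of 19.9 TPM, is left out of the printed sequences. The 69 bases run from the first cysteine codon of the finger. Capitals mark the P box, the 5 codons after the third cysteine that encode the residues touching the half-site. They were read from the GRCm38 coding sequence of the named gene.
Nr1h2: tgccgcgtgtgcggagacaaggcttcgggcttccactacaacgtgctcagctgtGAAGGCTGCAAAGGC
Nr2f6: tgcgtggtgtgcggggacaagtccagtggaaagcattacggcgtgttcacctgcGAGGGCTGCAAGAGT
Nr2f2: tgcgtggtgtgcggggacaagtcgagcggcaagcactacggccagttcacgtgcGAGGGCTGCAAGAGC
Rxrb: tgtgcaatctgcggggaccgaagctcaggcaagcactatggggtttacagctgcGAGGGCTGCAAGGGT
Thra: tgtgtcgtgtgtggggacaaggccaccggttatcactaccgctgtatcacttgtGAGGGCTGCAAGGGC
Rara: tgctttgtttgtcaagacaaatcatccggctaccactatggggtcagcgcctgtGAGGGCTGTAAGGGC
Rarb: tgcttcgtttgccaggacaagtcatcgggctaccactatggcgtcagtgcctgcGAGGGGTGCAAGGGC
A search for this finger pattern found it in a coding sequence of 43 of the 45 members. It was not found in Nr0b1 and Nr0b2, which are known to have no DNA-binding domain. Translated, the P box was the same in 27 members, among them Nr1h2, Rxrb, Thra and the retinoic acid receptors, although the codons spelling it differ between them. The 3 COUP-TFs, Nr2f6, Nr2f2 and Nr2f1, shared a P box of their own, as did the 3 steroid receptors listed, Nr3c1, Nr3c2 and Pgr. The finger of Rara was identical to that of Rarb at 59 of 69 bases, that of Nr2f6 to Nr2f2 at 61 and that of Nr1h2 to Nr1h3 at 55.

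Levels are given as TPM, a unit that divides reads by transcript length before scaling each library to a fixed total, and so allows genes to be compared. The authors' TPM counts spike-ins in the total, which held 14.6% of it in replicate 1 and 11.1% in replicate 2. Replicate 1 held 34344230 estimated counts and replicate 2 held 31477397, and the 45 receptors took 18872 and 17135 of them. Markers of liver and of other tissues were both found. All 8 hepatoblast markers were detected, with 4698 TPM of Afp, the fetal serum protein, in replicate 1 and 5457 in replicate 2, and all 8 erythroid markers were detected too. All 7 endothelial, 7 mesenchymal and 7 macrophage markers were also detected. So were 9 of 10 heart muscle markers, led by Myl7 with 119 TPM in replicate 1 and 58.9 in replicate 2, 1 of 5 gut and stomach markers, Barx1, with a mean of 17.1 TPM, and 3 of 6 kidney and gonad markers, the highest being Osr1 with 8.07 and 7.53 TPM. The part of such tissue in the receptor levels was not tested. In such bulk tissue fewer cells of a type and less RNA per cell cannot be told apart, and a receptor's level cannot be assigned to a cell type.

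A gene was called detected at 1 TPM or more in both libraries. By this rule 26 of the 45 receptors were detected, or 57.8%, against 56.6% of the 21474 protein-coding genes, so the receptors' share was near that of protein-coding genes as a whole. At 10 TPM or more in both libraries stood 9 receptors, or 20.0%, against 35.1% of protein-coding genes. Another 17 receptors were under 1 TPM in both libraries, and Nr1h4 and Nr3c2 passed it in replicate 1 only. The median receptor had 1.61 TPM in replicate 1 and 1.63 TPM in replicate 2, while the median protein-coding gene had 2.82 and 2.87 TPM. The most abundant receptor, Nr1h2, ranked 2669 among protein-coding genes. The 10 most abundant receptors held 79.1% of the family's TPM in replicate 1 and 80.1% in replicate 2, and the whole family held 0.0285% and 0.0293% of all TPM.

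**Figure D1:**
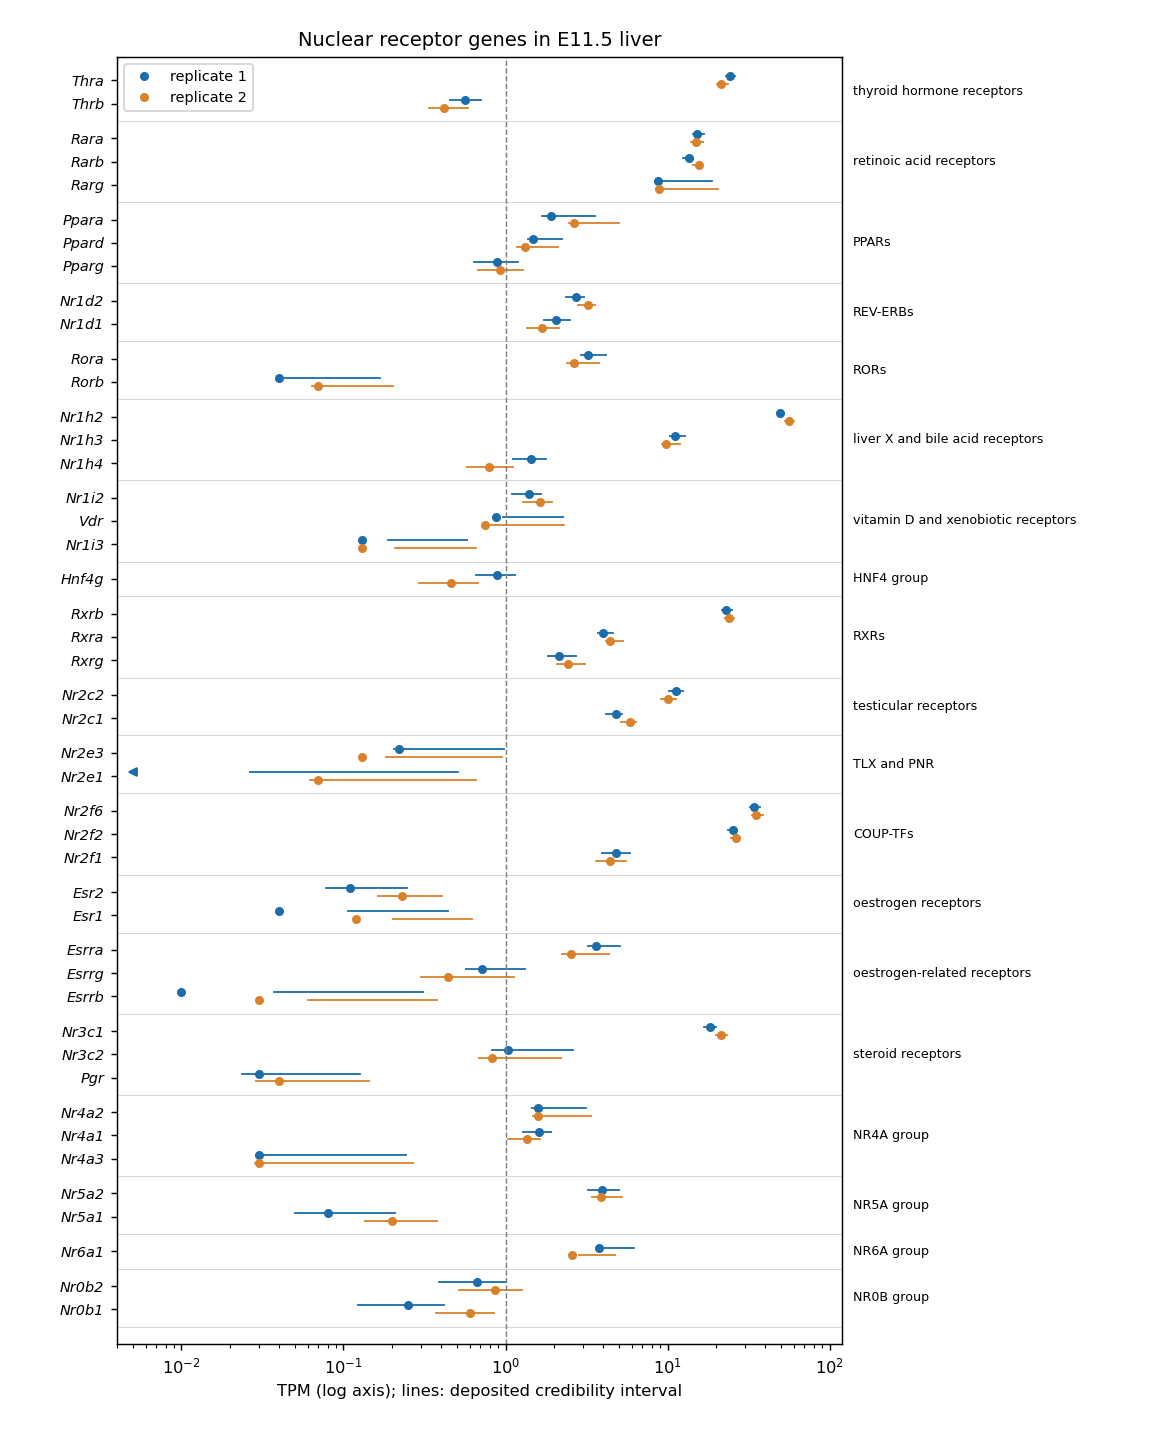
TPM of each of the 45 receptors (log axis) in replicate 1 and replicate 2, grouped by subgroup, with the deposited credibility interval as a line; the dashed line is 1 TPM and the triangle marks a value of 0. Nr1h2 is highest at 49.4 and 55.8 TPM, and the oestrogen receptors, Rorb, Pgr, Nr4a3 and Esrrb lie far to the left of the dashed line; in 9 receptors the point lies outside its interval in a library, because the interval belongs to the posterior mean.

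The retinoid X receptors, the shared dimer partners, were all 3 detected and were dominated by Rxrb. Rxrb had 23.1 TPM in replicate 1 and 23.8 TPM in replicate 2. Rxra, which is the main form in adult liver, had 3.98 and 4.42 TPM, and Rxrg had 2.14 and 2.44 TPM. Rxrb was therefore 5.48-fold above Rxra and 9.86-fold above Rxrg on the scale of TPM + 0.1, with the same order and no overlap of intervals in either library, and it supplied 79.0% of RXR TPM in replicate 1 and 77.6% in replicate 2. Set against the dimer partners, the supply was small: the 14 members counted as partners of RXR (thyroid hormone, retinoic acid, PPAR, liver X, bile acid, vitamin D and xenobiotic receptors) summed to 131 TPM in replicate 1 and 135 in replicate 2, or 4.49 and 4.41 times the 29.2 and 30.6 TPM of the 3 RXRs. A single partner, Nr1h2, held 37.7% of partner TPM in replicate 1 and 41.3% in replicate 2. These are levels of RNA and not of protein.

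The liver X receptors, which sense oxysterols and drive cholesterol export and fatty acid synthesis, gave the highest receptor of all. Nr1h2 (LXR beta), the broadly expressed form, had 49.4 TPM in replicate 1 and 55.8 TPM in replicate 2. Nr1h3 (LXR alpha), the form known from adult liver and macrophages, had 11.2 and 9.84 TPM, so that Nr1h2 was 4.97-fold higher. Of 11 genes known as LXR targets, 9 were detected, or 81.8%, against 56.6% of protein-coding genes. Apoe, which carries lipid in lipoproteins, led with 1102 TPM in replicate 1 and 1144 TPM in replicate 2. Lpcat3, a phospholipid remodelling enzyme, had 64.5 and 72.4 TPM, Srebf1, the regulator of lipid synthesis, 59.1 and 62.0 TPM, and the synthase Fasn 52.5 and 61.5 TPM. The pair of sterol exporters of bile, Abcg5 and Abcg8, were the exceptions: Abcg5 had 0.13 and 0.42 TPM and Abcg8 0.08 and 0.11 TPM.

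The bile acid receptor was close to the line of detection, and most of the genes listed as its targets or for bile acid handling were below it. Nr1h4 (FXR), which restrains bile acid synthesis and switches on bile export, had 1.43 TPM in replicate 1 and 0.79 TPM in replicate 2, with 70 and 34 estimated counts. Nr0b2 (SHP), the corepressor-like receptor that FXR induces, had 0.67 and 0.86 TPM. Against 56.6% of protein-coding genes, only 2 of the 11 genes for FXR targets and bile acid handling were detected, or 18.2%. These were Abcb4, the phospholipid exporter of bile, at 19.6 TPM in replicate 1 and 24.3 in replicate 2, and Cyp27a1, a sterol hydroxylase, at 2.04 and 3.23 TPM. Cyp7a1, the rate-limiting enzyme of bile acid synthesis, had 0.07 and 0.09 TPM and Cyp8b1 had 0.02 TPM in each. The bile salt export pump Abcb11 had 0.95 and 0.81 TPM, and the bile salt uptake carrier Slc10a1 had 0.54 and 0.34 TPM. Slc51a, Slc51b, Fgf15 and Baat were also under 1 TPM in both libraries, and Slc27a5 had 1.43 TPM in replicate 1 and 0.68 TPM in replicate 2.

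All 3 retinoic acid receptors were detected, at levels close to each other. Rara had 15.3 TPM in replicate 1 and 14.9 TPM in replicate 2, Rarb 13.5 and 15.7 TPM, and Rarg 8.74 and 8.89 TPM. None of the 3 pairs could be ordered, since the deposited intervals overlapped or, for Rara and Rarb, the libraries gave opposite orders. The value of Rarb carries a limit: its only listed transcript, Rarb-201, shares 1793 of its 3108 reference bases with exons of Top2b on the opposite strand. Top2b, a topoisomerase gene, had 50.2 TPM in replicate 1 and 56.4 in replicate 2. Rarb-201 was quantified at a length of 3034 bases, so the overlap in the annotation used for counting may differ. The labels and tables do not state whether strand was used in counting. Estimated counts of Rarb were whole numbers, 1023 in replicate 1 and 1038 in replicate 2. Those of Thra and Nr1d1, which also overlap on opposite strands, were not, at 1312.35 and 139.65 in replicate 1. The share of Rarb reads that came from Top2b was not tested.

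Rarb is itself a textbook target of retinoic acid, through a direct repeat with 5 bases between half-sites (DR5) in its promoter. Of 61 promoter windows of 41 receptors in RefSeq on GRCm38.p6, each reaching 250 bases before to 50 after a start site, 1 held a DR5, that of Rarb, against 0.0974% of all 32851 windows. The half-sites searched were AGGTCA, its variant AGTTCA, then GGGTCA and lastly GGTTCA, on both strands, the same or different in the 2 positions. Both half-sites of the Rarb element are in that set, so its match marks a textbook element and is no measure of enrichment. The element is shown in capitals in the bases that lead up to the start site, at chr14:16575477-16575609 on the minus strand, and it ends 36 bases before that site.
Rarb: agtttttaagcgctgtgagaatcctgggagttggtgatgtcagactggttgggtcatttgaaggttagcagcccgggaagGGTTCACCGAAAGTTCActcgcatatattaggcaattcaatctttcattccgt
A DR5 also stood in the promoter of Cyp26a1, the enzyme that breaks retinoic acid down, at chr19:37697696-37697807 on the plus strand. It is shown in capitals, and its repeat reads on the opposite strand; it is given because the pair of genes with this element differ in level.
Cyp26a1: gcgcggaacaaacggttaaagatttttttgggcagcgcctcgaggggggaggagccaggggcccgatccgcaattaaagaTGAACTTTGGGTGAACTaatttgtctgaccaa
Rarb stood at 13.5 TPM in replicate 1 and 15.7 in replicate 2, while Cyp26a1 had 0.49 and 0.48 TPM, or 21 and 18 estimated counts. No receptor window held a repeat with spacing of 1, 2, 3 or 4 bases, found in 0.222%, 0.268%, 0.0396% and 0.0822% of all windows. The single half-site AGGTCA was in 19.7% of receptor windows, against 16.3% of all windows. These matches describe letters in a short window and no binding was measured.

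Of 16 genes of retinoic acid supply and response 11 were detected, or 68.8%, against 56.6% of protein-coding genes. Rbp4, the serum carrier of retinol made by liver, had 1059 TPM in replicate 1 and 1140 TPM in replicate 2. Tgm2, a transglutaminase induced by retinoids, had 37.8 and 40.0 TPM, and Dhrs3, which reduces retinal, had 32.6 and 36.3 TPM. The 3 degrading enzymes were all under 1 TPM in both libraries, with Cyp26b1 at 0.66 and 0.47 TPM and Cyp26c1 at 0.07 and 0.08 TPM beside Cyp26a1, and so was the embryonic retinoid target Hoxb1, at 0.65 and 0.58 TPM.

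Of the thyroid hormone receptors, Thra was abundant and Thrb, the main form of adult liver, was not detected. Thra had 24.1 TPM in replicate 1 and 21.4 in replicate 2, and Thrb had 0.56 and 0.42 TPM, a 39.0-fold difference on the scale of TPM + 0.1. The Thra gene has an unusual layout, since exons of 2 of its listed transcripts overlap Nr1d1 (REV-ERB alpha) on the opposite strand of chromosome 11. Thra-202, with 410 codons the length of the hormone-binding form alpha 1, carried 47.8% of Thra TPM in replicate 1 and 47.3% in replicate 2. Thra-201, with 492 codons the length of alpha 2, which does not bind hormone and opposes the receptor, carried 41.2% and 43.6%, so both forms were present in like amounts. Thra-201 shares 263 of its 2452 bases with Nr1d1 exons and the minor Thra-203, at 2.90% and 3.30% of Thra TPM, shares 130 of 1240, while Thra-202 shares none. Of 10 genes of thyroid hormone supply and response, 5 were detected. Ttr, a carrier of thyroid hormone in blood, had 178 TPM in each library, and the transporter Slc16a10 had 21.6 TPM in replicate 1 and 27.2 TPM in replicate 2. The malic enzyme Me1 had 5.83 and 5.33 TPM. The 3 deiodinases, which activate or destroy the hormone, were near 0: Dio1 had 0.10 and 0.09 TPM, Dio2 0.01 and 0.08 TPM, and Dio3 0 counts in replicate 1 and 2 counts in replicate 2. The transporter Slco1c1 and the lipogenic target Thrsp were also under 1 TPM in both libraries.

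The PPARs, the fatty acid sensors, were low. Ppara, which drives fatty acid oxidation in liver, had 1.91 TPM in replicate 1 and 2.66 TPM in replicate 2. Ppard, the widely expressed form, had 1.47 and 1.31 TPM, and the order of Ppara and Ppard could not be called. Pparg, the receptor of fat cells, was not detected, at 0.89 and 0.93 TPM, though with spike-ins left out of the total it averaged 1.04 TPM and passed in both libraries. Most Pparg TPM, 82.9% in replicate 1 and 100% in replicate 2, lay on Pparg-202, whose 475 codons are the length of the broadly expressed gamma 1 form. Of 15 genes known as PPARA targets 12 were detected, while 56.6% of all protein-coding genes were. Plin2, which coats lipid droplets, had 123 TPM in replicate 1 and 136 TPM in replicate 2. The mitochondrial oxidation enzymes Hadha and Acadm had 89.2 and 50.8 TPM in replicate 1 and 99.7 and 59.0 TPM in replicate 2. The fatty acid binding protein Fabp1 had 48.8 and 48.2 TPM. The microsomal hydroxylases Cyp4a10 and Cyp4a14, classic inducible targets in rodents, had 0 counts in both libraries. A count of 0 allows up to 3 counts, which is 0.0586 TPM for Cyp4a10 and 0.0829 TPM for Cyp4a14 in replicate 1 and 0.0672 and 0.0950 TPM in replicate 2. The hormone gene Fgf21 had 0.19 TPM in replicate 1 and was listed at 0 in replicate 2.

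The receptors of foreign compounds and vitamin D were at the edge of detection or below it. Nr1i2 (PXR), which senses drugs and bile acids, had 1.39 TPM in replicate 1 and 1.63 TPM in replicate 2, from 88 and 90 estimated counts. Vdr, the vitamin D receptor, had 0.87 and 0.75 TPM, but the deposited posterior mean averaged 1.52 TPM and in both libraries would pass the rule of detection. Nr1i3 (CAR), the phenobarbital-responsive receptor of adult liver, had 0.13 TPM in each library, from 9.40 and 8.19 estimated counts. All of the Nr1i3 signal was assigned to Nr1i3-208, a transcript of 221 codons without the finger pattern, and 2160 of its 2980 bases overlap exons of Tomm40l on the opposite strand, a gene at 24.2 TPM in replicate 1 and 25.5 in replicate 2. The part of Tomm40l in these counts was not tested. Of 10 known PXR and CAR targets, 5 were detected. Gstm1, a glutathione transferase, had 173 TPM in replicate 1 and 196 TPM in replicate 2, the electron donor Por 36.7 and 39.6 TPM, the haem synthesis enzyme Alas1 27.5 and 35.1 TPM, and the exporter Abcc2 3.81 and 3.48 TPM. The drug-metabolising enzymes that define the adult response, Cyp3a11, Cyp2b10 and Cyp2c55, had 0 counts in both libraries, which in replicate 1 allows up to 0.0518, 0.0885 and 0.0613 TPM. These enzymes belong to families of near-identical copies among which reads may be divided. Abcb1a and Ugt1a1 were under 1 TPM in both libraries.

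The COUP-TFs, orphan receptors that mostly repress, summed to 64.2 TPM in replicate 1 and 65.9 in replicate 2, as much as the liver X and bile acid receptors at 62.0 and 66.4 TPM, with opposite orders in the libraries. Nr2f6 had 34.0 TPM in replicate 1 and 35.1 TPM in replicate 2. Nr2f2 (COUP-TFII), known for its part in venous and mesenchymal identity, had 25.4 and 26.4 TPM, and Nr2f1 had 4.81 and 4.40 TPM. The 3 genes kept this order in both libraries with intervals that did not overlap, Nr2f6 being 1.33-fold above Nr2f2 and Nr2f2 5.53-fold above Nr2f1. The main transcript of Nr2f6 shares 914 of its 2218 bases with Ocel1 on the opposite strand, which itself had 5.25 and 4.66 TPM. The testicular receptors Nr2c2 (TR4) and Nr2c1 (TR2), which in erythroid cells are known as repressors of embryonic globin genes, were both detected. Nr2c2 had 11.3 TPM in replicate 1 and 10.1 in replicate 2, and Nr2c1 had 4.78 and 5.88 TPM. This 2.00-fold difference, in the same order in both, is of whole-gene TPM. Transcripts with the finger pattern held 55.7% of Nr2c2 TPM in replicate 1 and 66.3% in replicate 2, and 100% of Nr2c1 TPM in each. The order of Nr2c2 and Nr2c1 on such transcripts alone was not tested. Their relatives Nr2e3 and Nr2e1, known from retina and brain, had 4 and 2 counts and 0 and 1 counts, and a count of 0 allows up to 0.0971 TPM for Nr2e1 in replicate 1.

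Among steroid receptors the glucocorticoid receptor stood alone. Nr3c1 had 18.3 TPM in replicate 1 and 21.4 TPM in replicate 2. The mineralocorticoid receptor Nr3c2 had 1.03 and 0.82 TPM, 19.5-fold lower (log2 ratio 4.29, or 3.63 by posterior mean TPM), and the progesterone receptor Pgr had 0.03 and 0.04 TPM from 4 counts in each. The oestrogen receptors had 0.11 and 0.23 TPM for Esr2 and 0.04 and 0.12 TPM for Esr1. The chaperones that hold steroid receptors ready were abundant: Hsp90ab1 had 1371 TPM in replicate 1 and 1490 in replicate 2, and Hsp90aa1 had 1308 and 1436 TPM. The metallothioneins Mt1 and Mt2, which glucocorticoids and metals induce, had 1896 and 545 TPM in replicate 1 and 1983 and 568 TPM in replicate 2. In all, 11 of the 13 genes of chaperones and glucocorticoid response were detected, or 84.6%, against 56.6% of protein-coding genes. Tat, a glucocorticoid target of late fetal and newborn liver, had 0.17 and 0.06 TPM. Of 7 steroid synthesis genes only Hsd3b1 was detected, at 6.13 and 6.33 TPM, or 14.3% of the list against 56.6% of protein-coding genes. Star, Cyp11a1, Cyp17a1 and Cyp11b1 were under 1 TPM in both libraries, and Cyp19a1 and Cyp21a1 had 0 counts.

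Receptors of the circadian clock were present at a few TPM. The repressors Nr1d2 and Nr1d1 had 2.71 and 2.06 TPM in replicate 1 and 3.21 and 1.69 TPM in replicate 2, and their competitor at the same DNA element, the activator Rora, had 3.23 and 2.63 TPM. The main transcript of Nr1d1 shares 263 of its 2721 bases with opposite-strand exons of Thra, at 24.1 TPM in replicate 1 and 21.4 in replicate 2. The part of Thra reads in the Nr1d1 level was not tested. Rorb, a receptor of brain and retina, had 0.04 and 0.07 TPM. Of 15 other clock genes 13 were detected, or 86.7%, against 56.6% of protein-coding genes. The list was led by Cry2 at 17.1 TPM in replicate 1 and 16.5 in replicate 2 and Cry1 at 15.0 and 17.4 TPM. Next came Tef at 9.65 and 9.69 TPM and Nfil3 at 7.48 and 6.84 TPM. Npas2 and Bhlhe41 were under 1 TPM in both. The hour of collection is not given in the labels, so these levels belong to no known phase.

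Of the remaining orphan receptors, Nr5a2 (LRH-1), which in adult liver drives bile acid genes, had 3.96 TPM in replicate 1 and 3.91 TPM in replicate 2. Nr5a1 (SF-1), the receptor of gonad and adrenal, had 0.08 and 0.20 TPM. Nr6a1, known from germ cells and early embryos, had 3.75 and 2.59 TPM. Esrra, which drives mitochondrial genes, had 3.61 and 2.54 TPM, Esrrg had 0.72 and 0.44 TPM, and Esrrb, a gene of pluripotent cells, had 1 and 3 counts. The immediate-early receptors Nr4a2 and Nr4a1 had 1.59 and 1.61 TPM in replicate 1 and 1.59 and 1.35 TPM in replicate 2, and Nr4a3 had 0.03 TPM in each. Hnf4g had 0.88 and 0.46 TPM, and Nr0b1 (DAX1) had 0.25 and 0.60 TPM.

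Few receptors could be told apart from their neighbours in the order of mean TPM. To be called ordered, a pair needed 1 order in both libraries, separate deposited intervals in each, and a mean log2 ratio larger than its change from library to library. Of the 44 neighbouring pairs, 4 met this: Nr1h2 stood above Nr2f6, Nr2f6 above Nr2f2, Nr3c1 above Rara, and Rarg above Nr2c1. Nr2f2, Rxrb, Thra and Nr3c1, at means of 25.9, 23.4, 22.8 and 19.9 TPM, were therefore not separated step by step, nor were Nr2c2 and Nr1h3 at 10.7 and 10.5 TPM. Within subgroups 23 of 35 pairs were ordered and 12 were not. Where both genes of a pair were detected, 8 of 14 were ordered. With 2 libraries the smallest p of an exact sign-flip test is 0.5, so none is given.

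**Figure D2:**
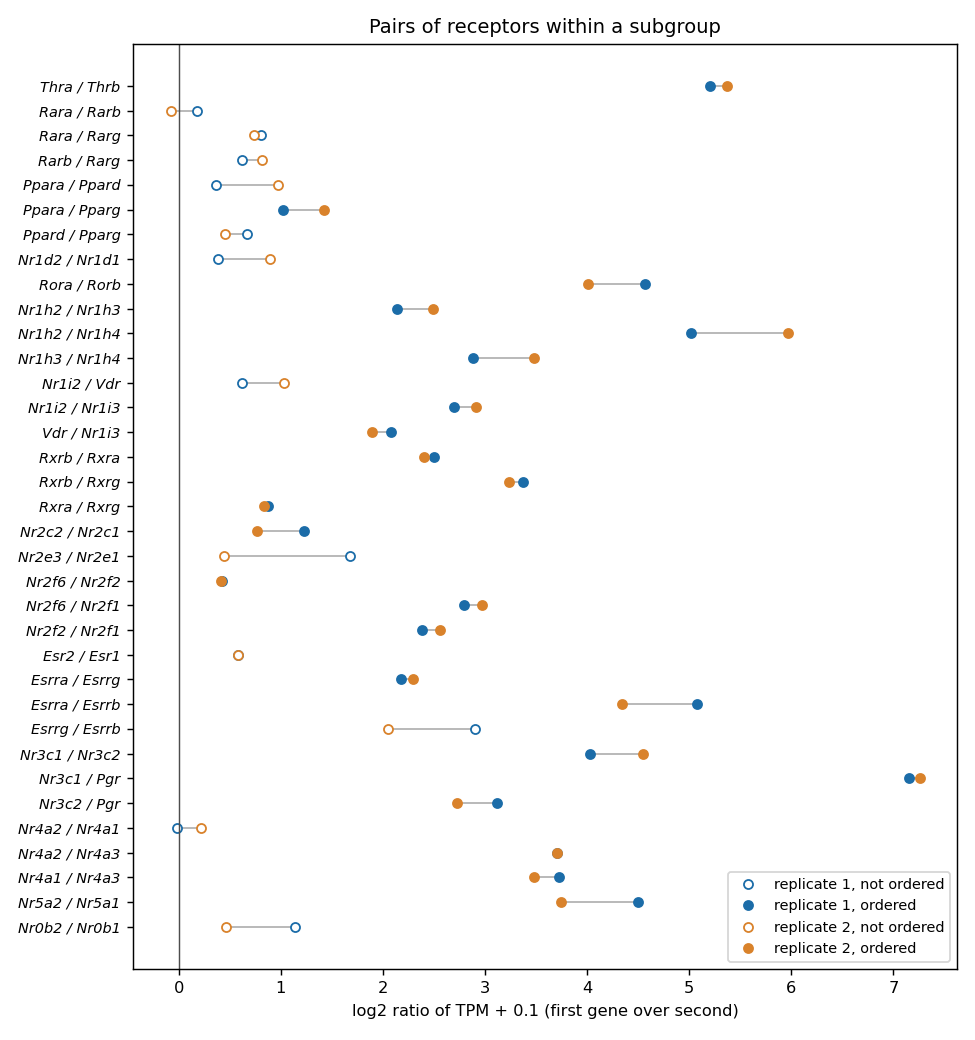
Log2 ratio of TPM + 0.1 for the 35 pairs of receptors within a subgroup, in replicate 1 and replicate 2; filled points are pairs called ordered and open points pairs that were not. Nr3c1 over Pgr is the widest at a mean log2 ratio of 7.20, and Rara over Rarb straddles 0.

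Transcript shares showed how much of each receptor's TPM was assigned to transcripts with the finger pattern in their annotated coding sequence. An annotated coding sequence may be incomplete, so a missing pattern does not show that the RNA cannot encode the finger. Transcripts marked for nonsense-mediated decay count where they hold the pattern, such as Nr2c2-205 at 13.2% of Nr2c2 TPM in replicate 1 and 11.7% in replicate 2. In 13 of the 26 detected receptors at least 90% of TPM lay on transcripts with the finger pattern in both libraries, and Rara and Rarb reached 100%. In Nr2f2, 76.2% of TPM in replicate 1 and 76.9% in replicate 2 came from Nr2f2-201 (414 codons, with the finger), and the remaining 23.8% and 23.1% came from Nr2f2-202, whose 281 codons lack the pattern. Nr2f1 was alike in kind, with 57.0% and 68.2% on finger-bearing Nr2f1-201. Its next transcript, Nr2f1-202, has 273 codons without the pattern and held 34.2% and 28.6%, from 31.5 and 21.0 estimated counts. In Nr2c2, the short Nr2c2-203 held 44.3% of TPM in replicate 1 and 33.7% in replicate 2, from 125 and 74 estimated counts. The annotated coding sequence of Nr2c2-203 is only 4 codons. Full-length Nr2c2-201 drew 906 and 882 estimated counts. Nr2c2-201 also overlaps exons of Mrps25 on the opposite strand, a mitochondrial ribosome gene at 86.7 and 89.0 TPM. Other detected receptors with opposite-strand neighbours shared little: Esrra-201 shares 73 of 2242 bases with Trmt112, which had 129 and 134 TPM, Nr2f1-201 shares 123 of 3207 with A830082K12Rik, and Rora-202 shares 82 of 2591 with Gm15511, which was listed at 0. For Rxrb, the 410-codon Rxrb-202 held 64.1% and 64.8%, and the 524-codon Rxrb-201 held 25.7% and 28.0%. For Rora, the 467-codon Rora-202 held 66.4% and 63.4% and the 523-codon Rora-201 held 6.27% and 8.84%.

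**Figure D3:**
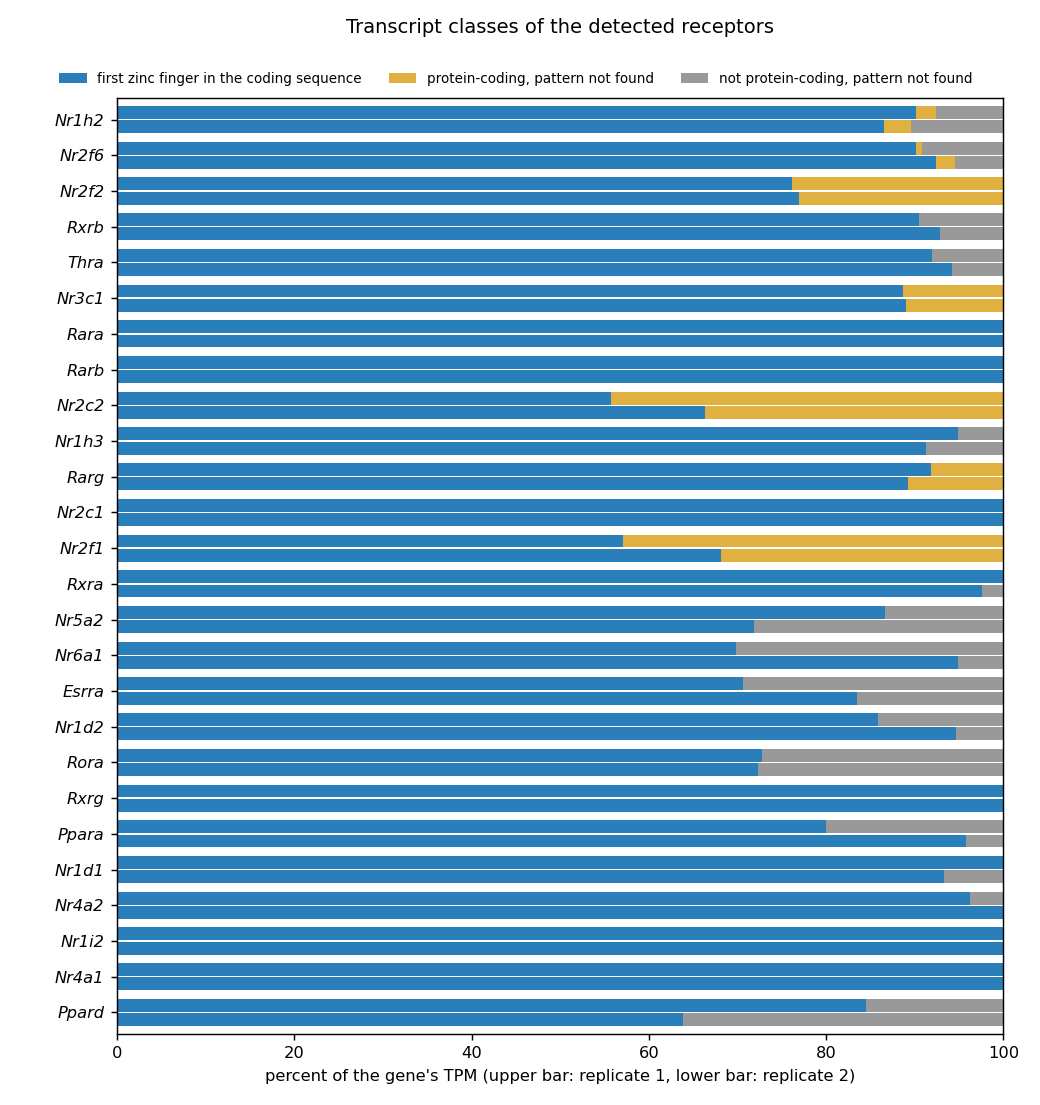
Percent of each detected receptor's TPM on transcripts with the first zinc finger in the coding sequence, on protein-coding transcripts without the pattern and on other transcripts without it, with replicate 1 above replicate 2 in each pair of bars. Rara, Rarb and Nr2c1 are filled by the first class, and Nr2f2, Nr2f1 and Nr2c2 keep a wide second class. In Nr2c2 that class is Nr2c2-203, annotated with only 4 codons.

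Of the 23 detected receptors with more than 1 listed transcript, 19 had the same main transcript in both libraries, or 82.6%, against 90.8% of detected protein-coding genes with 2 or more transcripts. The 4 that differed were Nr1h3, Nr2c2, Nr3c1 and Nr6a1. Nr1h3 changed between Nr1h3-202, at 43.6% of TPM in replicate 1 and 18.4% in replicate 2, and Nr1h3-201, at 41.8% and 56.6%, which have the same 445 codons. Nr3c1 was divided among Nr3c1-203, at 34.8% and 24.7%, Nr3c1-208, at 33.1% and 30.3%, and Nr3c1-204, at 18.6% and 27.6%. Nr6a1-202 and Nr6a1-201, with 495 codons each, held 45.8% and 0.01% in replicate 1 and 23.9% and 40.0% in replicate 2. Other receptors kept a main transcript that held under 60% in a library. Nr1h2 was spread over Nr1h2-204 at 46.0% and 30.5% and Nr1h2-203 at 40.6% and 29.5%. Rara-202 held 43.0% and 37.9%, Nr2c1-203 59.6% and 61.5%, and Nr5a2-201 51.4% and 38.8%. The reads are shared out by a model, so forms that differ only outside the coding sequence are poorly separated.

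Most receptors lay within 1.5-fold between the pools, and those at least 2-fold apart had low counts. With counts scaled by TMM (a factor that equalises the bulk of genes), 37 receptors had a mean of 10 or more counts and 29 of them lay within 1.5-fold. The share of all genes within 1.5-fold is not given here, so this count is not a trait of the receptors. At least 2-fold higher in replicate 1 were 2, Esrrg and Hnf4g, or 5.41%, against 2.91% of all mouse genes at that count. At least 2-fold higher in replicate 2 was 1, Nr0b1, or 2.70%, against 1.46%. All 3 were among the 14 receptors with a mean of 10 to under 100 counts, or 2 of 14 higher in replicate 1 and 1 of 14 in replicate 2. Of all mouse genes in that range, 9.99% and 5.25% were called in the same directions. Esrrg had 80 estimated counts in replicate 1 and 28 in replicate 2, a log2 ratio of 1.39 with a 95% exact binomial interval of 0.77 to 2.08. Hnf4g had 49 and 22 counts, a log2 ratio of 1.03 (0.29 to 1.84), and Nr0b1 had 11 and 23 counts, a log2 ratio of -1.14 (-2.36 to -0.08). Below 2-fold, Nr1h4 had a log2 ratio of 0.92 (0.32 to 1.57) and Vdr 0.85 (0.31 to 1.42). At a mean of 100 or more counts some intervals also left out 0, among them those of Ppara at -0.65 (-1.06 to -0.25), Esrra at 0.51 (0.14 to 0.89), Nr1d1 at 0.45 (0.06 to 0.84) and Thra at 0.25 (0.13 to 0.37). These intervals cover counting error only. With TPM in place of scaled counts the log2 ratio was 0.70 for Esrrg and 0.92 for Hnf4g, both short of 2-fold, while Esr2 reached -1.0, so that 2 receptors, Esr2 and Nr0b1, were called. Beside these, all 10 heart muscle markers were higher in replicate 1, with sums of 311 and 134 TPM for replicates 1 and 2 and a list median of 1.63 on the log2 scale, and the part of such tissue in the receptor values was not tested. Among the 23 receptors at a mean of 100 or more counts the SD of the log2 ratio was 0.25, against 0.20 for protein-coding genes at that count.

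**Figure D4:**
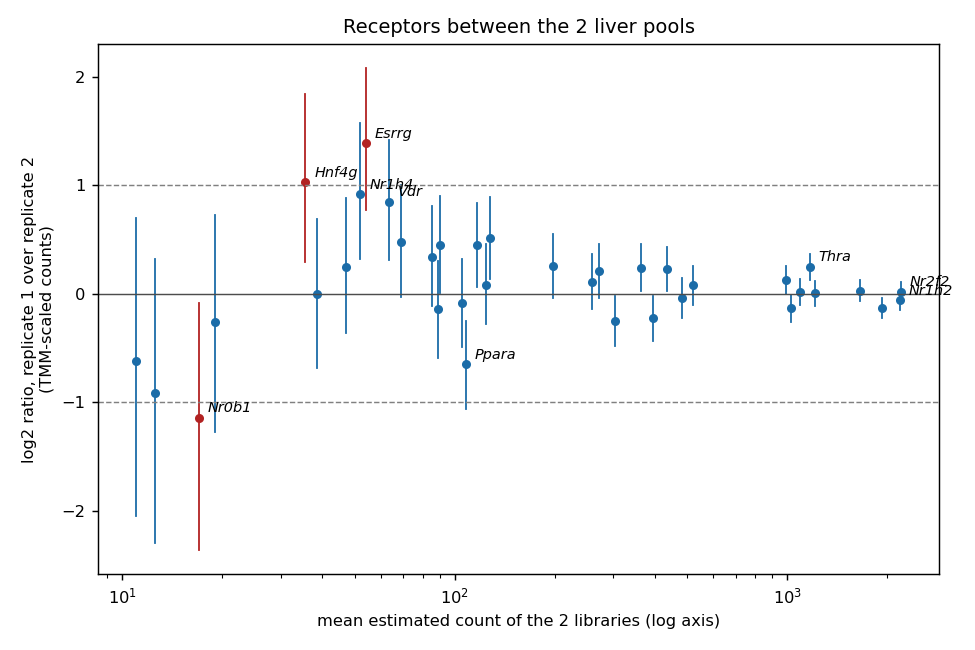
Log2 ratio of replicate 1 over replicate 2 (TMM-scaled estimated counts) against mean estimated count (log axis) for the 37 receptors with a mean of 10 or more counts, with 95% exact binomial intervals; dashed lines mark 2-fold and red marks the 3 receptors past it. Esrrg, Hnf4g and Nr0b1 lie under 100 counts, and no receptor above 100 counts departs from 0 by more than 0.65.

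The cofactors through which receptors act were detected throughout. All 12 coactivators matched were detected, led by Pprc1 at 55.4 TPM in replicate 1 and 61.9 in replicate 2 and by the Mediator subunit Med1 at 46.7 and 49.1 TPM. The methyltransferase Carm1 had 41.1 and 43.3 TPM and Ncoa6 had 15.7 and 15.9 TPM. All 11 corepressors were detected. Ncor1, the scaffold through which unliganded receptors recruit deacetylase, had 110 TPM in replicate 1 and 107 TPM in replicate 2. Its partners in that complex, Gps2, Hdac3 and Tbl1x, had 98.7, 69.7 and 40.5 TPM in replicate 1 and 97.2, 75.6 and 45.7 TPM in replicate 2. The median corepressor had 27.1 and 30.2 TPM and the median coactivator 14.4 and 13.7 TPM, while the median detected receptor had 4.38 and 4.41 TPM and the median detected protein-coding gene 16.2 and 17.3 TPM. Over all 11 lists of cofactors, ligand supply and targets, 92 of 131 genes were detected, or 70.2%, against 56.6% of protein-coding genes. The share was lowest in steroid synthesis (1 of 7) and in FXR targets and bile acid genes (2 of 11).

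**Figure D5:**
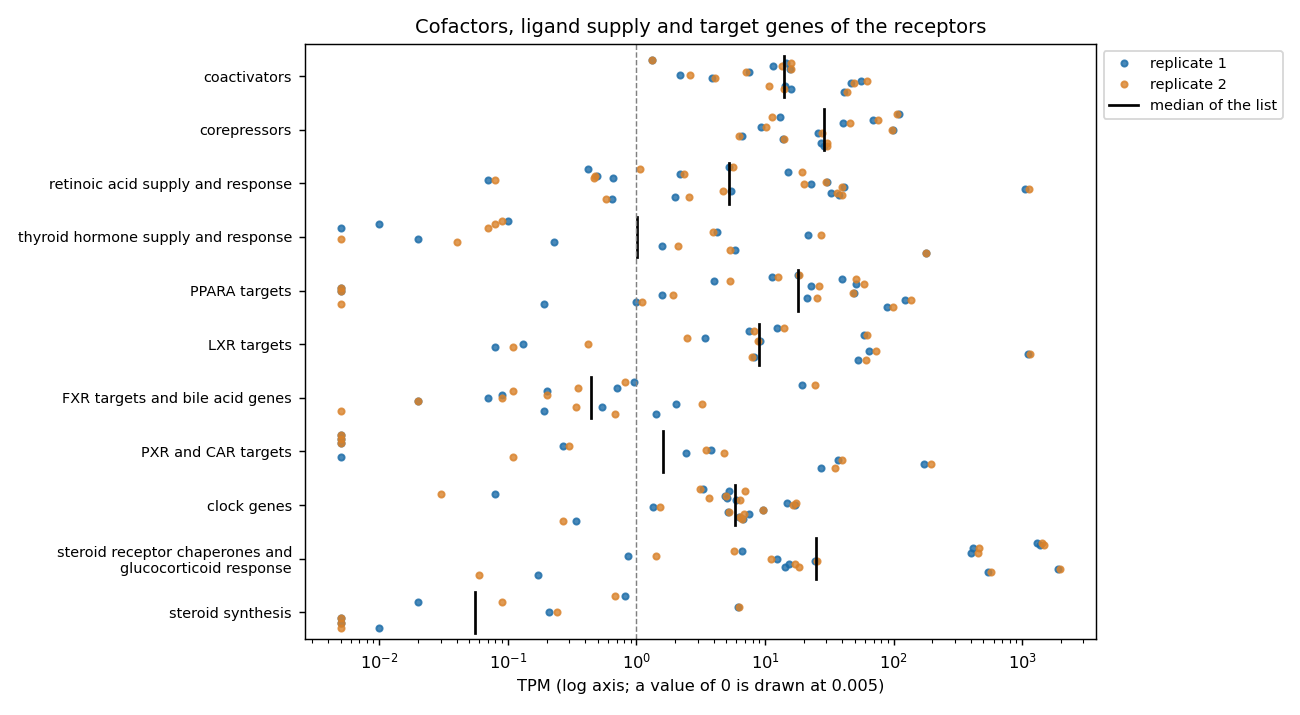
TPM (log axis) of each gene of the 11 lists of cofactors, ligand supply and target genes in replicate 1 and replicate 2, with the median of each list as a bar; the dashed line is 1 TPM and values of 0 are drawn at the left edge. Every coactivator and corepressor lies right of the dashed line, while most FXR and bile acid genes and steroid synthesis genes lie left of it.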

How the data were processed

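Total RNA of the 2 liver pools was quantified by the authors on mouse assembly mm10, per the labels, with GENCODE release M4, per the text notes deposited with the tables. Aligner, quantifier and strand setting were not given in the sources used here. Deposited estimated counts need not be whole numbers, and the authors gave TPM relative to all features, spike-ins included. The percent of each gene's TPM carried by each transcript was deposited too. The deposited signal bounds used as intervals are those of the credibility interval of TPM, per the file headers, whose level is not stated. Symbols, classes, exons and coding sequences came from GENCODE M21 on GRCm38, the same assembly, and all 234 receptor transcripts matched; coordinates may differ from M4.

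Receptors and lists were chosen with earlier results of these data known. Of 132 listed pathway genes, 131 were matched. Genes named were every receptor, the 4 highest genes and those under 1 TPM in both libraries of each list, main transcripts that differed, were not coding or held under 60%, and opposite-strand overlaps. A few of the results so chosen are not reported here. Counts were rounded for TMM (edgeR 4.0.16, R 4.3.3) and DESeq2 1.42.0 size factors, leaving out spike-ins and features named by a number. The log2 ratio used a pseudocount of 0.5. The steps were tested on simulated data. With 1 group there was no test between conditions. Depth was 31721267 and 29750192 estimated counts on mouse genes; a count of 0 allows up to 3 counts, which are 0.0552 and 0.0628 TPM for Thra.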

Additional observations from a re-analysis of the deposited data

How the results depend on the processing

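No paired analysis was possible because both libraries belong to 1 group. The number of receptors detected was 26 and lay between 20 (2 TPM or more) and 35 (10 or more counts) under the other rules, and between 26 and 28 with a library left out; that of pathway genes was 92 and lay between 87 and 104, and between 93 and 94 with a library left out. Ordered pairs numbered 23, and between 21 and 29 otherwise; with a library left out there were 25 to 26. Estimated counts, which are not divided by length, reversed 1 pair, Nr2f6 over Nr2f2, to a log2 ratio of -0.41. FXR and bile acid genes detected numbered 2, against 4 at 0.5 TPM and 6 at 10 counts, and steroid synthesis genes 1, against 2 under either. Receptors at least 2-fold apart numbered 3, against 7 with no minimum count, 0 at a mean of 100 counts, 1 with a pseudocount of 5 (Esrrg), 8 at 1.5-fold, 2 with TPM (Esr2 and Nr0b1) and 4 with spike-in scaling (Esr2, Nr0b1, Ppara and Rorb), which moved the median of all genes by -0.49 (log2). Leaving out a library gives no ratio between libraries, so that result has no such value, nor has the main transcript. Receptors with the same main transcript numbered 19 of 23, against 7 of 10 at 5 TPM or more, where fewer genes enter. Over mouse genes alone, TPM of every receptor is higher by the spike-in share, Nr1h2 is at 60.3 TPM, and Pparg joins the detected receptors. Posterior mean TPM placed Rarg at 12.7 and Nr1i3 at 0.400 TPM, and brought Vdr (mean 1.52 against 0.810 TPM) and Nr3c2 (1.52 against 0.925 TPM) into the detected receptors. Counting intervals are widest for the receptors under 100 counts, and depth limits most what can be said of those.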
